A study of Mus musculus with 6 samples.

Results

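Type 1 conventional dendritic cells (cDC1) were selected on measured counts in single-cell RNA sequencing of aged mouse lung. They were the barcodes that held at least 1 UMI (unique molecular identifier, a counted transcript) each of Ptprc, Xcr1 and Clec9a and no UMI of Cd3e or Cd79a, among those of 500 or more genes, 1000 or more UMIs and no more than 15% mitochondrial UMIs. Ptprc encodes CD45, the surface protein of blood-derived cells, Cd3e marks T cells and Cd79a marks B cells. This gate held 363 barcodes out of 88616 that passed the same filters and out of 32913 that also had a Ptprc UMI. Of these, 49, 77 and 85 came from the 3 libraries labelled p16-DTR and 50, 28 and 74 from the 3 control libraries.

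All 6 mice were male C57BL/6 animals of 21 months, with 1 library per mouse. The mice labelled p16-DTR carried p16-CreERT2 and R26-LSL-DTR, in which tamoxifen (TAM) switches on a Cre recombinase driven by p16, and Cre in turn switches on a diphtheria toxin receptor. Control mice carried p16-CreERT2 alone. Every mouse of both groups received TAM for 5 days and, after a 2-week interval, diphtheria toxin (DT) for 5 days, followed by 2 weeks of recovery, so the Cre driver, TAM and DT were shared. Each library mixed 20000 sorted CD45-negative with 9000 sorted CD45-positive cells from Liberase-digested lung, so the number of cDC1 per lung was not measured. The comparison asks how cDC1 differ after a treatment designed to remove cells that express p16.

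As background, cDC1 are the dendritic cells that take up dead cells and present their antigens on MHC class I molecules to CD8 T cells, a process called cross-presentation. They depend on the transcription factors IRF8 and BATF3 and on the cytokine FLT3 ligand. XCR1 is the receptor for a chemokine released by activated T and NK cells, and CLEC9A (DNGR-1) binds actin exposed on dying cells. In the lung many cDC1 carry the integrin CD103, encoded by Itgae, and lie beneath the airway epithelium.

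The 6 libraries held 254200305 to 344421685 UMIs each, and the cDC1 in them 1152874 to 3770836 UMIs, fewest in control library 2 with its 28 cells. A cDC1 barcode had a median of 38647 to 41195.5 UMIs per library, more than the 16555 to 17750 of all Ptprc-positive barcodes. The matrices shared 1055 barcode sequences between 2 or more libraries, none of them a cDC1 barcode in both. Simulated doublets marked 7.44% of cDC1 and 5.94% of all passing barcodes, and these were retained. The share of all passing barcodes follows from the assumed rate of 0.4% per 1000 barcodes and was not measured. The toxin receptor was not read directly, but tdTomato, an added entry of the reference, was counted 89, 74 and 94 times over all barcodes of the 3 p16-DTR libraries and 0 times in each control library. Cdkn2a, which encodes p16, reached 7.10, 8.57 and 7.31 unscaled CPM (UMIs of the gene per 1000000 UMIs) over all barcodes of the p16-DTR libraries and 1.15, 2.60 and 2.84 in controls, the direction opposite to a loss of p16-expressing cells. Group names below are therefore those of the labels, and directions hold for the libraries as labelled.

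The markers Flt3 and H2-Ab1, which the gate did not use, were found in 97.5% and 100% of cDC1, with medians of 9 and 318 UMIs. Flt3 is the receptor for the growth factor of dendritic cells and H2-Ab1 a chain of MHC class II. In barcodes gated on the B cell gene Cd79a (2 UMIs or more, no Cd3e, Xcr1 or Clec9a; median 12960 to 15607 UMIs per library) Flt3 was found in 16.4% and H2-Ab1 in 98.3%. At an equal depth of 5000 UMIs these shares were 67.1% and 99.7% in cDC1 and 6.21% and 96.7% in the Cd79a-gate barcodes, so Flt3 and not H2-Ab1 separated them. The gene for the adhesion molecule CADM1 was found in 96.4% of cDC1 and 8.91% of Cd79a-gate barcodes, and Tlr3, a sensor of double-stranded RNA, in 93.4% and 5.93%. RNA of other cells was present too. Sftpc, a surfactant gene of alveolar epithelium, had a UMI in 84.8% of cDC1 and 72.0% of Cd79a-gate barcodes, and at 5000 UMIs in 24.6% and 34.3%.

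Barcodes near the limits of the gate were described without a test. The 24 cDC1 with 1 Xcr1 UMI had Flt3 in 79.2% and a median of 158.5 H2-Ab1 UMIs, and the 9 with 1 Clec9a UMI had Flt3 in 66.7%. Among the 279 with at least 5 UMIs of both genes, Flt3 was found in 98.9%. Just outside, 1081 barcodes held Clec9a without Xcr1, with Flt3 in 36.0% and a median of 7 H2-Ab1 UMIs, and 34 held Xcr1 without Clec9a, with Flt3 in 20.6%. A further 110 held both gate genes but also Cd3e or Cd79a, and these resembled the cDC1 in Flt3 (96.4%), had a median of 55532 UMIs and were predicted doublets in 17.3%. The gate also left out most barcodes with markers of mature dendritic cells. At least 3 of the 4 markers Ccr7, Fscn1, Cacnb3 and Ccl22 were held by 57 Ptprc-positive barcodes with H2-Ab1 and without Cd3e and Cd79a. Of these 57, 7 held both gate genes, 8 Clec9a alone and 42 neither. Whether the 42 were cDC1 was not tested.

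The cDC1 were set beside 344 barcodes of a gate on Cd209a, a lectin of type 2 dendritic cells (Cd209a, Flt3 and H2-Ab1 found, Xcr1 and Clec9a absent), and 488 barcodes of a gate on the macrophage complement genes C1qa and C1qb (with H2-Ab1 found, Cd209a, Xcr1 and Clec9a absent). Levels between gates are unscaled CPM, taken over the UMIs of a gate in a library and averaged over the 6 libraries, and carry no test because the gate chose the cells. Of the Cd209a-gate barcodes, 97.7% had a UMI of Sirpa, a type 2 marker. Markers of monocytes and macrophages were found there too, F13a1 in 57.8%, Ly6c2 in 51.7%, Mrc1 in 56.4% and C1qa in 9.30%. In cDC1 these shares were 12.4%, 19.6%, 7.44% and 6.06%. Ccr2 and Apoe, from the same marker lists, were slightly less frequent in the gate than in cDC1 when all UMIs of a barcode were counted. At an equal depth the order was reversed. Ccr2 was then found in 82.2% of the gate and 72.4% of cDC1, and Apoe in 22.2% and 19.1%. How many barcodes of the gate were type 2 dendritic cells was not tested. The gates fix Xcr1 and Clec9a as present in cDC1 and absent from both others. In cDC1 Xcr1 lay at 259 to 309 CPM and Clec9a at 361 to 437 CPM over the 6 libraries. The lineage factor Irf8 averaged 1135 CPM in cDC1 against 75.2 in the Cd209a gate and 149.8 in the C1q gate. Wdfy4, needed for cross-presentation, averaged 1929 CPM against 383 and 152, and Tlr3 245 against 5.43 and 10.8. Itgae averaged 299 CPM in cDC1 against 9.49 and 0.714.

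Batf3 stood out less, at 100.3 CPM in cDC1 and 56.4 in the Cd209a gate, and Nfil3, another factor in cDC1 development, was lower in cDC1 (56.0) than in the Cd209a gate (129.9) in all 6 libraries. Flt3, which the Cd209a gate required, was close in both, at 244 and 217 CPM. Cd8a, carried by cDC1 of lymphoid organs, averaged 4.59 CPM in the lung cDC1. The plot of identity genes in the 3 gates shows Gcsam, Tlr3, Itgae, Ifi205 and Snx22 with wide gaps to the Cd209a gate and Flt3, Zbtb46 and Batf3 with small ones.

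**Figure D1:**
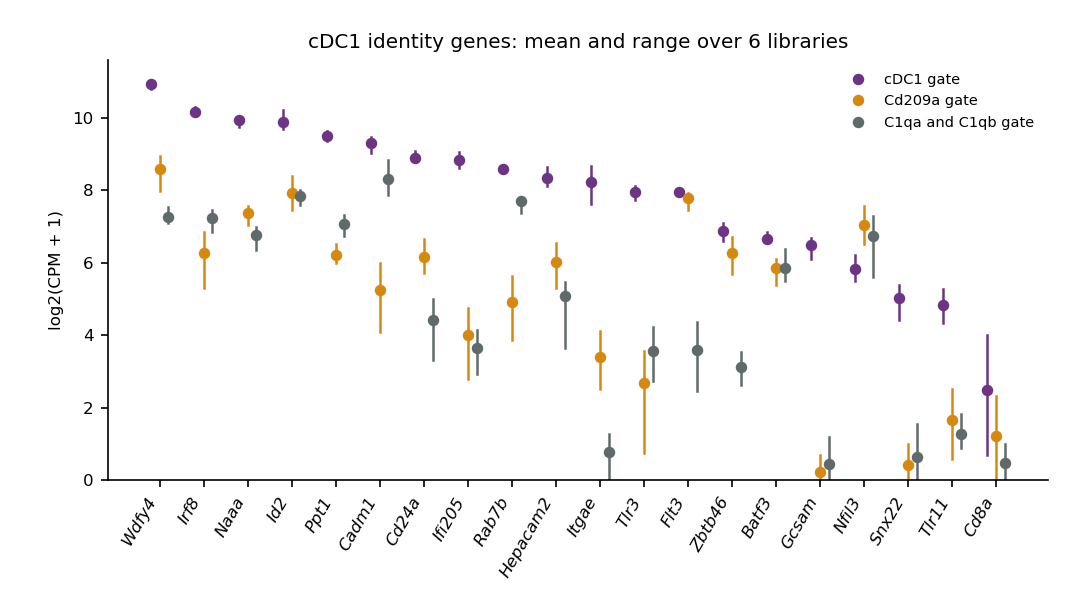
Levels of the 20 listed cDC1 identity genes, as log2(unscaled CPM + 1), in the cDC1 gate, the Cd209a gate and the C1qa and C1qb gate. Points are means of the CPM over 6 libraries and lines span the lowest to the highest library; Irf8 averaged 1135, 75.2 and 149.8 CPM in the 3 gates, and Nfil3 is the gene that is lower in cDC1 than in both others.

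Of 6636 genes with at least 20 CPM in either gate, 1266 were higher and 1534 lower in cDC1 than in the Cd209a gate in all 6 libraries. Besides the gate genes, the highest ratios belonged to Gcsam, Cd207, Mab21l3, Homer2, Clnk, Il12b, Snx22 and Naalad2. Cd207 encodes langerin, a C-type lectin, and averaged 78.4 CPM in cDC1 (1202 UMIs) with 3 UMIs in the whole Cd209a gate. Il12b, the p40 chain of interleukin 12, averaged 121 CPM against 1.22, a ratio of 99.5, and Clnk, an adaptor of immunoreceptor signalling, 120.5 against 0.595, a ratio of 202. In the other direction the largest ratios were those of the lectin genes Cd209c (70.0), Cd209d (57.5) and Clec10a (34.0), followed by the growth factor gene Areg (28.3), Cd7 (26.9), the protease gene Mmp12 (26.2), Dcn (26.2), Kcne3 (22.9), the lectin gene Mgl2 (20.6) and Ddr1 (18.9). Several of these ratios rest on 1 library or a few cells. The cDC1 level was highest in control library 3 for Areg (8.74 CPM, with a mean of 1.84 over the 6 libraries) and Cd7 (17.5 CPM, mean 4.46) and in p16-DTR library 2 for Mmp12 (14.9 CPM, mean 3.24), so that the order of their ratios depends on these libraries. Dcn is a matrix gene of fibroblasts and had 92 UMIs in cDC1 and 1554 in the Cd209a gate, where 1 barcode held 684. Its level in that gate was 271 and 563 CPM in control libraries 1 and 2 and 6.02 to 59.4 CPM in the others.

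The share of cDC1 among Ptprc-positive barcodes did not separate the groups. It was 0.899%, 1.28% and 1.26% in the p16-DTR libraries, with 95% Wilson intervals, which cover counting error only, of 0.681 to 1.19%, 1.02 to 1.59% and 1.02 to 1.56%. The control libraries had 0.990%, 0.677% and 1.35%, with intervals of 0.752 to 1.30%, 0.469 to 0.976% and 1.07 to 1.69%. The highest and the lowest share were both those of control libraries. The means were 1.15% ± 0.213 and 1.00% ± 0.335 (SD, n = 3 each), a difference of 0.141 percentage points (exact two-sided permutation p = 0.7). With 3 libraries against 3 that test cannot go below 0.1. Without control library 2 the difference was -0.0230.

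The Cd209a gate held 0.880%, 1.16% and 0.890% of Ptprc-positive barcodes in the p16-DTR libraries and 1.07%, 0.991% and 1.29% in controls (exact permutation p = 0.3), which also overlapped. The C1q gate held 1.39%, 1.79% and 2.57% against 0.773%, 0.894% and 1.00%, without overlap (exact permutation p = 0.1).

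**Figure D2:**
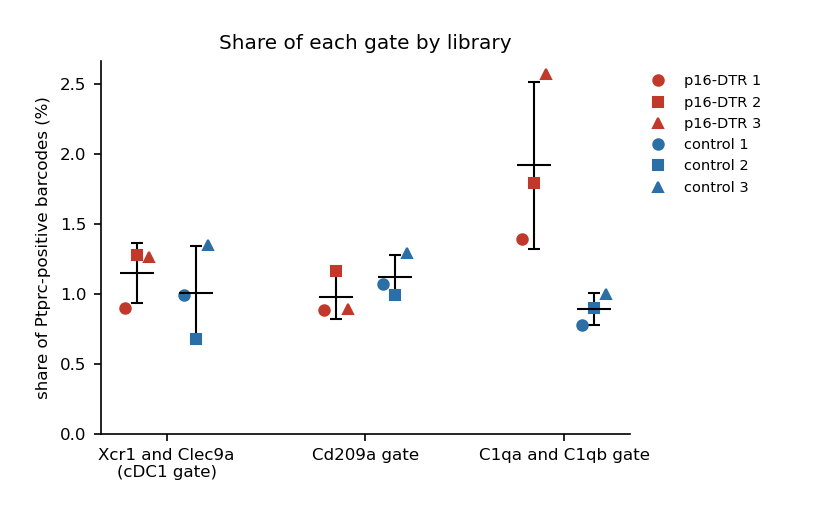
Share of Ptprc-positive barcodes (%) that fell into the cDC1 gate, the Cd209a gate and the C1qa and C1qb gate, 1 point per library, with bars for the mean and SD of 3 libraries. The cDC1 shares of both groups lie between 0.677% and 1.35% and overlap, whereas the C1qa and C1qb shares of the p16-DTR libraries, from 1.39%, all lie above those of the controls.

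No gene passed the test between the groups in cDC1. UMIs of the cDC1 of each library were summed and compared with edgeR's quasi-likelihood test over 10415 genes (Benjamini-Hochberg adjustment, threshold 0.05), and 0 genes (0% of those tested) were called, with a smallest adjusted p of 0.449. At an unadjusted p under 0.05 stood 736 genes (7.07%), 371 higher (3.56%) and 365 lower (3.5%) in the p16-DTR libraries. In 1416 genes (13.6%) the 3 values of one group all lay on one side of the other 3, higher in 712 (6.84%) and lower in 704 (6.76%). DESeq2, run as an alternative, called 22 of the 18652 genes with a p-value (0.118%), 10 higher and 12 lower. It gave some genes of low counts, Cdkn2a among them, no adjusted p, so these could not be called. The p-values weigh the group difference against the spread between the 3 libraries of a group.

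The gene values below are therefore differences that did not pass, given as CPM after TMM scaling for each library in the order of its replicate number. Among the 10 higher genes of smallest p were 2 surface proteins of macrophages and monocytes. Adgre1 (ENSMUSG00000004730, chromosome 17, 57358691 to 57483527 in GRCm38), which encodes F4/80, had 48.9, 48.6 and 50.8 CPM in the p16-DTR libraries and 16.3, 20.9 and 24.0 CPM in the control libraries. The lowest p16-DTR value lay well above the highest control value, at a log2 fold change of 1.27 ± 0.18 SE (edgeR adjusted p = 0.449; DESeq2 adjusted p = 0.00719). Fcgr1, the high-affinity Fc receptor CD64, had 24.5, 20.6 and 13.2 CPM in the p16-DTR libraries and 2.26, 2.61 and 4.63 CPM in the control libraries. Its groups did not overlap either, at a log2 fold change of 2.50 ± 0.38 SE (edgeR adjusted p = 0.449; DESeq2 adjusted p = 0.00819).

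Lyz2, the lysozyme of macrophages, monocytes and neutrophils, had 2877, 2255 and 2391 CPM in the p16-DTR libraries and 1249, 1507 and 1763 CPM in the control libraries. The groups did not overlap, and the log2 fold change was 0.73 ± 0.14 SE (edgeR adjusted p = 0.449; DESeq2 adjusted p = 0.00084). The interferon-inducible gene Ifi27l2a had 272, 174 and 184 CPM in the p16-DTR libraries and 92.8, 75.6 and 105 CPM in the control libraries, with every p16-DTR value above every control value and a log2 fold change of 1.18 ± 0.20 SE. Its edgeR adjusted p was 0.449 and its DESeq2 adjusted p 0.00017. In unscaled CPM, Adgre1, Fcgr1, Lyz2 and Ifi27l2a all had lower means in cDC1 than in the Cd209a gate, and Lyz2 and Adgre1 also than in the C1q gate: Lyz2 averaged 5637 in the Cd209a gate and 8446 in the C1q gate, and Adgre1 88.8 and 523.

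Markers of several other cell classes also differed between the libraries. The 5 interstitial macrophage markers C1qa, C1qb, C1qc, Mrc1 and Apoe summed to 367, 517 and 410 unscaled CPM in cDC1 of the p16-DTR libraries and 253, 302 and 154 in controls, without overlap, with 4 of 5 positive, a median log2 fold change of 1.29 (0.98 to 2.73 when 1 library was left out, highest without control library 2) and none of them at 0. C1qb had 22.5, 64.6 and 109 CPM against 0.906, 33.02 and 14.2 CPM. The sum was weighted by Apoe, with 3075 UMIs in all cDC1 against 453 to 748 for each of the other 4. Taken singly, each of the 5 markers overlapped between the groups. The 5 classical monocyte markers summed to 557 to 1234 against 624 to 712 unscaled CPM and overlapped, a sum that includes Ccr2, which cDC1 also carry; 4 of the 5 were positive, with a median log2 fold change of 0.90, or 0.19 without p16-DTR library 1. At least 10 UMIs of the other 4 monocyte markers were held by 6 of 49, 10 of 77 and 11 of 85 cDC1 in the p16-DTR libraries (12.2 to 13%) and 4 of 50, 1 of 28 and 7 of 74 in controls (3.57 to 9.46%), so that the shares did not overlap. The 7 type 2 dendritic cell markers summed to 150 to 198 against 115 to 157, and 3 of 5 tested were positive with a median of 0.47 (0.27 to 0.74 when 1 library was left out, lowest without control library 1 and highest without p16-DTR library 2). At least 10 UMIs of 5 of them were held by 11 of 49, 14 of 77 and 21 of 85 cDC1 (18.2 to 24.7%) against 6 of 50, 4 of 28 and 10 of 74 (12 to 14.3%), also without overlap. At least 10 UMIs of 3 nonclassical monocyte markers were held by 6 of 49, 9 of 77 and 17 of 85 cDC1 against 4 of 50, 2 of 28 and 8 of 74, again without overlap in the shares, and 4 of the 5 markers were positive with a median of 0.13 (0.32 without control library 2 and 0.06 without control library 3). Neutrophil markers summed to 449 to 1626 against 178 to 2882 and endothelial markers to 55.5 to 106 against 31.4 to 470, both with their highest value in a control library. Of 4 tested neutrophil markers 0 were positive (median -0.21, or 2.29 without control library 3), and of 4 endothelial markers 0 (median -1.27, or 0.61 without control library 2). Of 5 fibroblast markers 3 were negative (median -0.19, from -0.79 to 0.62 when 1 library was left out). The shares of cDC1 with at least 10 UMIs overlapped between the groups for interstitial macrophage, neutrophil, endothelial and fibroblast markers. For C1qa, C1qb, C1qc and Mrc1 together, 1 of 49, 5 of 77 and 7 of 85 cDC1 in the p16-DTR libraries held them. In controls 3 of 50, 1 of 28 and 2 of 74 did. Plasmacytoid dendritic cell markers stood at 179 to 255 and alveolar macrophage markers at 4.34 to 155 over the 6 libraries, and of these markers Klk1 and Marco were at 0 in every library. B cell markers summed to 78.5 to 130 and T cell markers to 0.867 to 18.6 over the same libraries. A looser rule asked for UMIs of at least 2 markers of 1 class, among B, T, natural killer, neutrophil, endothelial, epithelial and fibroblast cells. It marked 332 of 363 cDC1 and left 31. Of the cDC1, 29.9% in the p16-DTR libraries and 23.0% in controls held at least 10 UMIs of the markers of another class. With these cells left out, a choice made after the values were seen, Lyz2 had a log2 fold change of 0.06, Ifi27l2a 0.85 and Adgre1 1.56, and Fcgr1 had too few counts to be tested. For Fcgr1 the part of these cells was not tested. The smallest adjusted p in that edgeR fit was 0.0592, for Abcb1b.

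The other 6 of the 10 higher genes included Clnk, named above for its high ratio over the Cd209a gate, which had 147, 143 and 156 CPM in the p16-DTR libraries and 80.2, 99.9 and 103 CPM in the control libraries (log2 fold change 0.66 ± 0.12 SE), and its groups did not overlap. Il13ra1, a receptor chain for interleukins 4 and 13, had 124, 144 and 121 CPM against 77.4, 79.1 and 88.1 CPM (0.67). Bcl2a1b, an inhibitor of apoptosis with near-identical copies between which reads may be split, had 257, 278 and 261 CPM against 206, 164 and 164 CPM (0.58). The DESeq2 adjusted p was 0.0388 for Clnk, 0.0411 for Il13ra1 and 0.0268 for Bcl2a1b, and the edgeR adjusted p 0.449 for each. The remaining 3 were the microtubule-associated gene Eml6 (0.57), the long non-coding Gm26887 (1.05) and the mitochondrial acetyl-CoA synthetase gene Acss1 (0.54). With the cells rich in other-class markers left out, Clnk stayed at 0.65, Il13ra1 at 0.77 and Bcl2a1b at 0.55.

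Lower values in the p16-DTR libraries were led by Specc1 (ENSMUSG00000042331, chromosome 11, 61956763 to 62223013 in GRCm38), a cytoskeletal coiled-coil protein gene, with 83.7, 98.5 and 82.2 CPM in the p16-DTR libraries and 196, 156 and 173 CPM in the control libraries. The highest p16-DTR value lay well under the lowest control value, at a log2 fold change of -0.99 ± 0.12 SE (edgeR adjusted p = 0.449; DESeq2 adjusted p = 1.5e-05). Vav3, an exchange factor for small GTPases, had 539, 499 and 508 CPM in the p16-DTR libraries and 706, 739 and 715 CPM in the control libraries. Its replicates lay close together, with means of 515 ± 20.7 CPM against 720.1 ± 17.3 CPM (SD, n = 3 each), at -0.48 ± 0.07 SE on the log2 scale (DESeq2 adjusted p = 0.00017). Abcb1b, a drug efflux transporter, had 18.6, 16.004 and 20.01 CPM in the p16-DTR libraries and 57.1, 33.9 and 51.0 CPM in the control libraries, at -1.39 ± 0.22 SE (DESeq2 adjusted p = 0.00749). In edgeR the adjusted p was 0.449 for both.

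The other lower genes of smallest p were Sipa1l2 (-1.13), P4htm (-0.995), the amino acid transporter gene Slc38a1 (-0.52), the nuclear receptor corepressor gene Nrip1 (-0.56), the ketone body enzyme gene Oxct1 (-0.46), Ssfa2 (-0.49) and Gt(ROSA)26Sor (-1.24). Of these 7, DESeq2 called Sipa1l2 alone (adjusted p = 0.0433). Gt(ROSA)26Sor is the transcript of the locus that carries the receptor allele of the p16-DTR mice, and had 6.85, 6.46 and 6.22 CPM against 12.7, 19.1 and 15.1 CPM in cDC1. Over all barcodes of a library it had 10.1, 10.8 and 11.4 unscaled CPM against 15.3, 14.5 and 15.2, also without overlap. Over the 20 genes, leaving out any 1 library kept the sign of each log2 fold change. That says little, since in all 20 the groups did not overlap and a sign could hardly turn. Specc1 ranged from -1.07 to -0.89 and Adgre1 from 1.12 to 1.43.

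**Figure D3:**
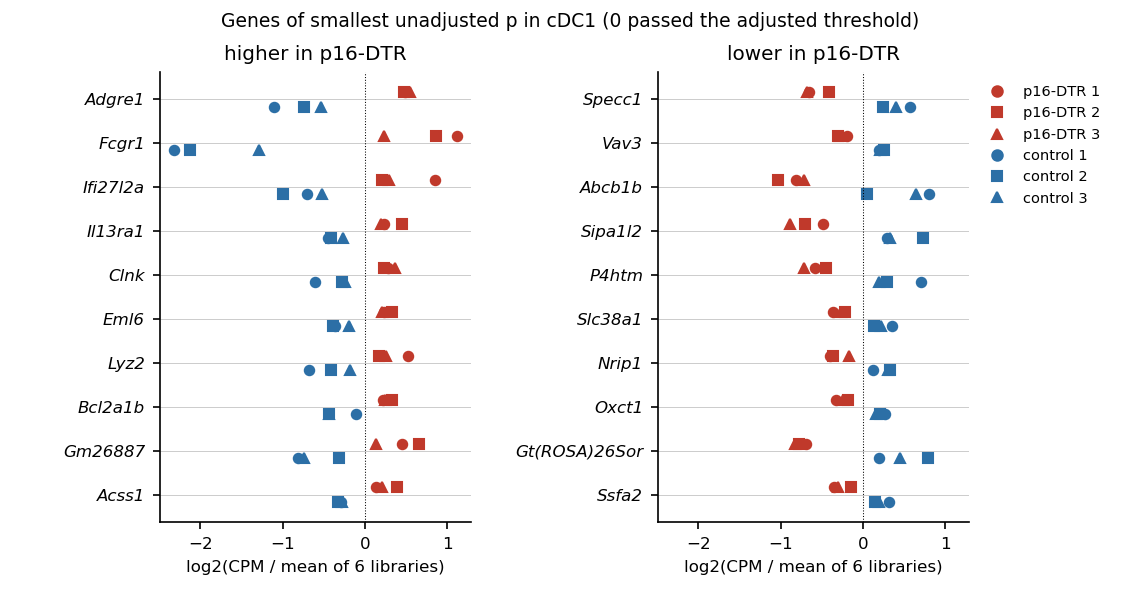
The 10 genes of smallest unadjusted p with higher values and the 10 with lower values in cDC1 of the p16-DTR libraries (mean of at least 10 CPM). Each point is 1 library, plotted as log2 of its TMM-scaled CPM over the mean of the 6 libraries; in all 20 genes the groups do not overlap, and 0 of them passed the adjusted threshold in edgeR.

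The identity programme showed little difference in level between the groups. Of its 20 genes 19 were tested, with 12 positive log2 fold changes and a median of 0.05, beside 5074 positive of all 10415 genes and a median of -0.01. The list's median lay at 0.02 without p16-DTR library 2 and 0.12 without p16-DTR library 1, and just under 0, with 9 of 19 positive, at 2 UMIs of the gate genes (-0.0013) and with predicted doublets left out (-0.0067). Irf8 had 1108, 1261 and 1149 CPM in the p16-DTR libraries and 1074, 1112 and 1150.5 CPM in the control libraries, a log2 fold change of 0.08 ± 0.07 SE. Batf3 had 95.4, 104 and 94.9 CPM against 103, 96.4 and 112 CPM and Id2, a factor of the cDC1 lineage, 998, 990.1 and 861 CPM against 823, 856 and 1183 CPM. All 3 overlapped between the groups. Flt3 had 245, 247 and 249.6 CPM against 228, 256 and 249.96 CPM (0.01 ± 0.08 SE; edgeR adjusted p = 0.993).

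At an unadjusted p under 0.05, where 3.56% of all tested genes were higher, stood Itgae, Gcsam and Ifi205 of the identity list, all with higher values in the p16-DTR libraries. Itgae (ENSMUSG00000005947, chromosome 11, 73090583 to 73147446 in GRCm38) had 298, 362 and 409 CPM in the p16-DTR libraries and 256, 292 and 192 CPM in the control libraries. Each p16-DTR library lay above each control library, at a log2 fold change of 0.54 ± 0.17 SE (edgeR adjusted p = 0.62). Gcsam, a signalling adaptor, had 103, 96.0 and 97.3 CPM against 67.5, 91.2 and 78.5 CPM (0.33), and the interferon-inducible Ifi205 500.03, 537 and 449 CPM against 399, 445 and 389.9 CPM (0.27).

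Genes of MHC class II presentation were abundant and near level. Cd74, the invariant chain, had 16664, 16200.0 and 15935 CPM in the p16-DTR libraries and 14636, 16973 and 15083 CPM in the control libraries, and H2-Ab1 7577, 6943 and 7589.8 CPM against 6747, 7547 and 6756 CPM (log2 fold change 0.07 ± 0.07 SE; edgeR adjusted p = 0.853). H2-Aa, its partner chain, stood at a log2 fold change of 0.06. Of 15 listed genes 14 were tested. At an unadjusted p under 0.05 stood 3 higher and 1 lower, beside 3.56% and 3.5% of all tested genes. The list's median log2 fold change was 0.07 (0.15 without control library 2, 0.04 without control library 3 and 0.02 with predicted doublets left out). H2-DMa, a chain of the molecule that loads peptides, had 882, 862 and 891 CPM against 663, 757 and 632 CPM, and its groups did not overlap (0.36 ± 0.08 SE). The protease gene Ctss had 912, 787 and 851 CPM against 650.3, 669 and 668 CPM (0.36) and the class II transactivator Ciita 197, 229.6 and 194 CPM against 158, 179.9 and 177 CPM (0.27). The fourth was H2-Eb2, with 17.6, 22.2 and 19.5 CPM against 31.7, 34.8 and 30.7 CPM (-0.70 ± 0.17 SE). All 4 had edgeR adjusted p of at least 0.449.

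On the class I side, 18 of 18 listed genes were tested. At an unadjusted p under 0.05 stood 3, all higher, beside 3.56% of all tested genes. The list's median was 0.06 (0.02 without p16-DTR library 1 and 0.13 without p16-DTR library 3). Among the 31 cells without 2 markers of another lineage it was -0.34, with 1 of 15 positive. B2m, the shared light chain of class I molecules, had 2106, 1766 and 1774 CPM in the p16-DTR libraries and 1447, 1557 and 1523 CPM in the control libraries, without overlap (0.32 ± 0.09 SE; edgeR adjusted p = 0.518). H2-K1 had 832, 863 and 822 CPM against 710.0, 761 and 729 CPM (0.19), and H2-D1, another classical class I heavy chain, stood at a log2 fold change of 0.11. Values of Cybb, the oxidase subunit that keeps phagosomes from acidifying, were 333, 178 and 196 CPM against 154, 89.5 and 171 CPM (0.74). The transporter gene Tap1 went the other way, at 131, 119 and 119 CPM against 132, 150.3 and 151 CPM (-0.23). Rab43 and Sec22b, both linked to cross-presentation, lay at 0.14 and 0.04.

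Receptors that take up dead cells and sense nucleic acids differed little as lists. Over all tested genes 3.56% stood higher and 3.5% lower at an unadjusted p under 0.05. Of 12 uptake and lectin genes, all tested, 1 stood at an unadjusted p under 0.05, the endocytic receptor Lrp1 (95.4, 95.1 and 78.9 CPM against 84.7, 39.1 and 52.4 CPM; log2 fold change 0.59), whose groups overlapped. Havcr2 (TIM-3) had 369, 519.5 and 476 CPM against 547, 491 and 414 CPM, and Ly75 (DEC-205), a lectin of cross-presenting cells, 97.4, 117 and 103 CPM against 173, 69.5 and 119.9 CPM. The scavenger receptor Cd36 stood at a log2 fold change of 0.02 and the lectin Clec12a at -0.02. Of 15 tested sensing genes, 11 were positive with a median of 0.13 (0.05 without control library 3 and 0.20 without control library 2). The median was 0.065, with 8 of 14 positive, with the cells rich in other-class markers left out. With predicted doublets left out it was 0.08. Tlr7, the receptor for single-stranded RNA, was the 1 sensing gene at an unadjusted p under 0.05. Tlr7 had 20.1, 18.2 and 10.3 CPM in the p16-DTR libraries and 4.53, 6.95 and 4.34 CPM in the control libraries, without overlap (1.66 ± 0.35 SE; edgeR adjusted p = 0.449). The cDC1 receptor gene Tlr3 had 248, 248 and 277 CPM against 225, 274 and 211 CPM (0.13) and Unc93b1, the chaperone of nucleic acid receptors, 441, 416 and 380.4 CPM against 346, 354 and 395 CPM (0.17). The transcription factor Irf5 stood at a log2 fold change of 0.08.

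The maturation and costimulation list had 22 of 24 genes tested, a median of -0.03 (0.06 without p16-DTR library 1, 0.03 without control library 1 and -0.14 without p16-DTR library 3) and 1 gene at an unadjusted p under 0.05. That gene was the costimulatory ligand Cd80, with 146, 201 and 165 CPM against 209, 202 and 231 CPM (-0.32 ± 0.13 SE). Over all tested genes 3.5% stood lower at such a p. Cd86 had 684, 599 and 629 CPM against 715, 643 and 629 CPM, Cd83 stood at a log2 fold change of -0.01 and the chemokine Ccl17 at 0.59. Ccr7, the receptor that guides dendritic cells to lymph nodes, had 0, 75.4 and 48.1 CPM in the p16-DTR libraries and 55.2, 0 and 70.4 CPM in the control libraries, with no UMI in 1 library of each group. Of 13 tested cytokine and chemokine genes 5 were positive, with a median of -0.32, and the median was 0.19 with cycling cells left out. It was -0.07 without control library 3, -0.17 without control library 1 and -0.17 without p16-DTR library 2. Ccl4 had 158, 88.02 and 192 CPM against 376, 226 and 243 CPM, without overlap (-0.95 ± 0.30 SE), Ccl9 70.5, 31.1 and 37.6 CPM against 23.5, 20.9 and 28.1 CPM (0.90) and Il12b 86.1, 137 and 91.9 CPM against 186, 73.0 and 157 CPM (-0.42). Il1b stood at a log2 fold change of -0.57 and Ccl6 at 0.20. Among 19 tested receptors for growth factors, cytokines and chemokines the median was -0.01 (-0.10 to 0.04 when 1 library was left out), with Csf1r, the receptor of macrophage growth factors, at 100.3, 68.6 and 82.5 CPM against 41.2, 47.8 and 68.4 CPM (0.65) and Ccr2 at 414, 349 and 361 CPM against 434, 456 and 479 CPM (-0.28). Ifngr1, a chain of the interferon gamma receptor, stood at a log2 fold change of 0.07. Csf1r was 0.12 and Ccr2 -0.44 with the cells rich in other-class markers left out.

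**Figure D4:**
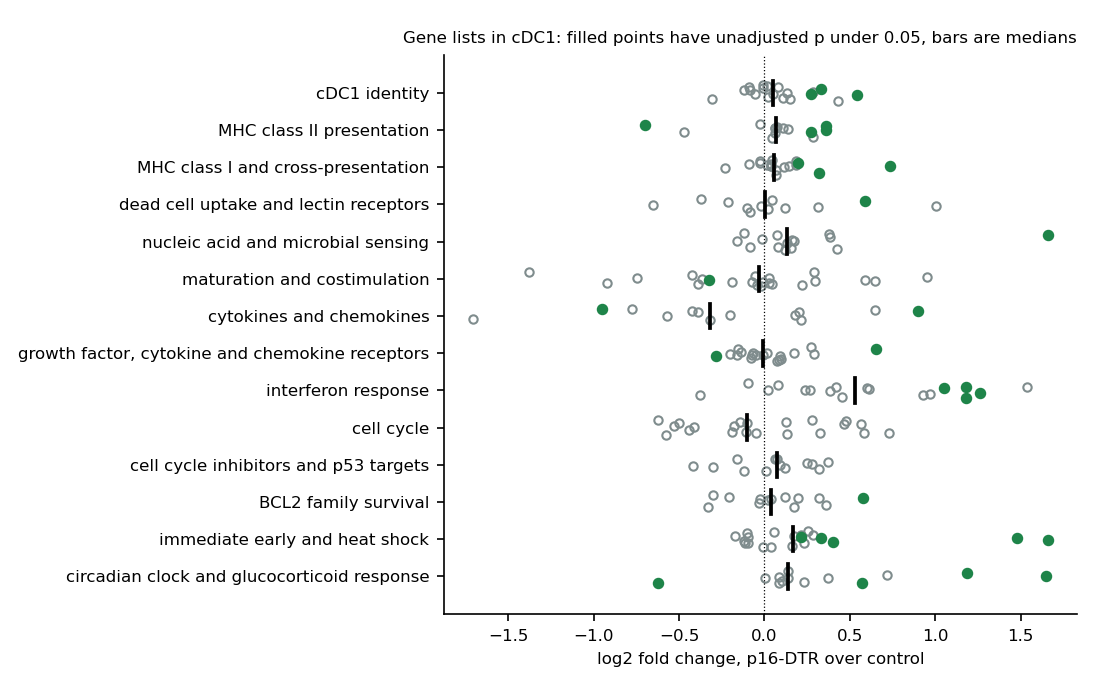
Log2 fold change, p16-DTR over control, of each tested gene of the 14 gene lists in cDC1, with a bar at each list's median and filled points for an unadjusted p under 0.05 in edgeR. The interferon list has a median of 0.53 and the cytokine and chemokine list one of -0.32, and 0 of the genes passed the adjusted threshold.

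Of the 14 lists the interferon response list had the highest median with all libraries and cells included. Another list was higher without p16-DTR library 1, without control library 1, with cycling cells left out, with the cells rich in other-class markers left out and among the 31 cells without 2 markers of another lineage. The list held 21 genes, of which 18 were tested, 16 were positive and the median log2 fold change was 0.53. At an unadjusted p under 0.05, where 3.56% of all tested genes were higher, stood 4, all higher, namely Ifi27l2a, Gbp2, Ifi47 and Zbp1. Promoter stretches of 250 bases before the start are shown for the genes Gbp2 and Ifi47 of this group, and for Isg15, a standard interferon-induced gene, for comparison (RefSeq, GRCm38.p6). Capitals mark the motif GAAA, any 2 bases, GAAA, or its reverse complement, a form of the element bound by IRF transcription factors. Gbp2 lies at chr3:142620413-142620662 on the plus strand, Ifi47 at chr11:49076337-49076586 on the plus strand and Isg15 at chr4:156200819-156201068 on the minus strand, all written in the direction of transcription.
Gbp2: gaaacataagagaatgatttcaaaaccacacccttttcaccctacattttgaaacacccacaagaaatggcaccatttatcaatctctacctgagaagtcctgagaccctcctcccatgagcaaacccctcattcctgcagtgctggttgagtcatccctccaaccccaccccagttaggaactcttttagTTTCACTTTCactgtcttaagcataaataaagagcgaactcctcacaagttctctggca
Ifi47: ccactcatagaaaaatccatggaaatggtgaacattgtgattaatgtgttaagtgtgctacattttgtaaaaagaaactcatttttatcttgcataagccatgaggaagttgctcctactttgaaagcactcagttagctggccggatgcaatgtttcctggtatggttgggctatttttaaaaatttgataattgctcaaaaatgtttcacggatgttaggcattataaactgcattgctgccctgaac
Isg15: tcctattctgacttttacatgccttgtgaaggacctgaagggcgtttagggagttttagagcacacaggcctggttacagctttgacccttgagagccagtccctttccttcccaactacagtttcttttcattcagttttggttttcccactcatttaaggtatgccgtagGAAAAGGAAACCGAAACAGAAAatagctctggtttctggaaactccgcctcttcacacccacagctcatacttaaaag

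The motif was searched on both strands from 250 bases before to 50 bases after the start. Gbp2 had 1 match, 59 bases before the start, Isg15 had 3 overlapping matches at 78, 72 and 66 bases before it, and Ifi47 had 0. Of the 21 interferon genes, 16 had a promoter in the reference table and 11 of these (68.8%) held the motif, against 2 of 16 cDC1 identity genes (12.5%) and 3.44% of all 32851 promoters. A match describes the letters of the window and is not evidence of binding. Ifi27l2a and Zbp1 had no entry.

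Levels of these genes were low and uneven between libraries. Gbp2, a guanylate-binding GTPase, had 13.7, 10.2 and 11.1 CPM in the p16-DTR libraries and 4.08, 4.34 and 6.37 CPM in the control libraries, without overlap (1.18 ± 0.30 SE; edgeR adjusted p = 0.477). Ifi47, an immunity-related GTPase, had 21.5, 18.8 and 7.84 CPM against 2.72, 6.08 and 10.1 CPM (1.26 ± 0.53 SE) and Zbp1, a sensor of Z-form nucleic acids, 40.6, 23.1 and 14.1 CPM against 13.6, 6.08 and 15.4 CPM (1.05 ± 0.44 SE). Isg15 had 56.8, 25.9 and 7.84 CPM in the p16-DTR libraries and 6.34, 4.34 and 30.1 CPM in the control libraries, highest in p16-DTR library 1 and overlapping (0.97 ± 0.82 SE). The antiviral gene Bst2 stood at a log2 fold change of 0.27.

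The interferon values differed with the libraries and cells included. The list summed to 1119, 851 and 571 unscaled CPM in the p16-DTR libraries and 521, 583 and 684 in controls, so p16-DTR library 3 lay within the control range. The median was 0.22 without p16-DTR library 1, 0.29 without control library 1 and 0.92 without p16-DTR library 3. With the 95 cycling cells left out it was 0.01, with 9 of 18 genes positive, and with the cells rich in other-class markers left out 0.09 over the 12 genes still tested.

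Cdkn2a (ENSMUSG00000044303, chromosome 4, 89274471 to 89294653 in GRCm38) was rare in cDC1. It had 6, 22 and 13 UMIs in all cDC1 of the p16-DTR libraries and 4, 2 and 2 in controls, or 2.94, 6.77 and 3.51 CPM in the p16-DTR libraries and 1.81, 1.74 and 0.579 CPM in the control libraries. The groups did not overlap, but the gene was below the filter on low counts. In a fit without that filter, over 18664 genes, the difference was 1.801 ± 0.69 SE on the log2 scale (edgeR adjusted p = 0.709), and it lay between 1.33 and 2.21 when 1 library was left out and at 1.27 without cycling cells. Counts per gene do not separate the p16 transcript from other Cdkn2a transcripts. Without thinning, 8.82% of cDC1 had a UMI of Cdkn2a. With each cell thinned to 5000 UMIs, Cdkn2a was found in 1.93% of cDC1, 0.877% of the Cd209a gate, 1.90% of the C1q gate, 2.96% of Cd79a-gate barcodes and 2.47% of all other Ptprc-positive barcodes. In the p16-DTR libraries the mean share was 2.77% in cDC1, 1.61% in the Cd209a gate, 2.35% in the C1q gate, 5.80% in the Cd79a gate and 4.01% in the other Ptprc-positive barcodes. In controls it was 0.450% in cDC1, 0.606% in the C1q gate, 0.286% in the Cd79a gate and 0.535% in the other barcodes. In the Cd209a gate 0 of 166 control cells had a UMI, which allows a detected share of up to 1.81% at this depth. Without thinning 1 of these 166 cells had a UMI. The differences between gates were not tested.

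Cdkn1a, which encodes the inhibitor p21, was found at 133, 146 and 127 CPM in the p16-DTR libraries and 127, 129 and 133 CPM in the control libraries, with a log2 fold change of 0.06 ± 0.10 SE (edgeR adjusted p = 0.925), and the groups overlapped. It was -0.28 with the cells rich in other-class markers left out. Hbegf, the mouse counterpart of the toxin receptor, had at most 2.70 CPM in any library, and tdTomato 0 UMIs in all cDC1. Of 13 tested cell cycle inhibitors and p53 targets and 21 tested cell cycle genes, 0 stood at an unadjusted p under 0.05 in edgeR (7.07% of all tested genes did). Their medians were 0.07 (0.13 without control library 3) and -0.10. The cell cycle median turned with the libraries included, at 0.34 (14 of 21 positive) without p16-DTR library 1, 0.19 without control library 1 and 0.06 without control library 3, and at -0.31 without p16-DTR library 3 (2 of 20 positive) or without control library 2. Mki67, a marker of dividing cells, had 37.2, 119.7 and 165 CPM against 146, 64.3 and 122 CPM, while Hmgb2 stood at a log2 fold change of -0.11, Tubb5 at 0.12, the inhibitor Cdkn1b at -0.30 and Bax at 0.12. In the BCL2 family (13 tested, median 0.04, or 0.0089 without control library 1 and 0.10 without p16-DTR library 2) Bcl2a1b alone stood at an unadjusted p under 0.05, while the survival gene Mcl1 had 556, 619 and 607 CPM against 519.9, 639 and 598 CPM (0.02), the proapoptotic Pmaip1 stood at a log2 fold change of -0.03 and Bcl2a1d, a near-identical copy of Bcl2a1b whose reads the counting could split, at 0.20.

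Of 20 immediate early and heat shock genes, all tested, 5 stood at an unadjusted p under 0.05, all higher in the p16-DTR libraries (3.56% of all tested genes did so), and the median was 0.17 (0.10 without control library 3). None of the 5 was among the 10 higher genes of smallest p. Fos had 1745, 2447 and 2176 CPM in the p16-DTR libraries and 1710.4, 1653 and 1696 CPM in the control libraries (0.33 ± 0.12 SE). The phosphatase gene Dusp1 had 922, 1172 and 1081 CPM against 797, 738 and 864 CPM (0.40), Jund 776, 909 and 858 CPM against 732, 717 and 742 CPM (0.21) and the heat shock gene Hspa1a, which shares reads with the near-identical Hspa1b, 28.4, 36.6 and 18.9 CPM against 6.79, 20.9 and 5.79 CPM (1.48). The constitutive chaperones Hspa8 and Hsp90ab1 stood at a log2 fold change of 0.28 and 0.17.

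Of 13 tested clock and glucocorticoid-response genes, 12 were positive with a median of 0.14 (0.11 to 0.32 when 1 library was left out, highest without control library 1), and the list summed to 994, 964 and 1094 unscaled CPM against 724, 827 and 766. Tsc22d3, the glucocorticoid-induced leucine zipper, had 329, 313 and 297 CPM in the p16-DTR libraries and 175, 221 and 235 CPM in the control libraries, without overlap (0.57 ± 0.12 SE; edgeR adjusted p = 0.449; DESeq2 adjusted p = 0.0411). Fkbp5, a cochaperone of the glucocorticoid receptor, had 199, 114 and 294 CPM against 54.8, 156 and 67.5 CPM (1.19) and Ddit4 36.2, 12.6 and 21.9 CPM against 2.26, 10.4 and 9.85 CPM (1.65). Arntl, which encodes the clock factor BMAL1, was the gene with a negative value, at 13.2, 10.2 and 13.5 CPM against 23.5, 16.5 and 16.5 CPM (-0.62), and Sgk1, another glucocorticoid target, stood at a log2 fold change of 0.00.

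The cDC1 differed among themselves in Itgae, division and maturation. To compare cells of unequal depth, each was thinned to 5000 UMIs, which left out 1 of 363. Itgae was then found in 61.9% of cDC1 and in 84.0% without thinning, against 2.92% of the Cd209a gate, 0.211% of the C1q gate and 0.617% of Cd79a-gate barcodes at the same depth. By library the thinned share was 57.1%, 68.8% and 78.6% in the p16-DTR libraries and 68.0%, 46.4% and 40.5% in controls. Means were 68.2% ± 10.7 and 51.7% ± 14.5 (SD, n = 3 each), and control library 1 lay inside the p16-DTR range (exact permutation p = 0.2, adjusted 0.875 over 10 shares).

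Il12b was found in 10.5% of thinned cDC1, against 0.292% of the Cd209a gate, and Mki67 in 14.4% (18.5% and 39.9% without thinning). Fewer cells had a UMI of Cxcl9, a chemokine for T cells (3.87%), of Cd8a (2.49%) or of Ccr7 (2.49%), and 2.76% were maturing by the definition given below. Cells with UMIs of at least 2 of Mki67, Top2a, Ccna2, Cdk1 and Birc5 (cycling) made up 6.91% of thinned cDC1, against 1.75% of the Cd209a gate and 0.422% of the C1q gate, and 26.2% without thinning. The thinned cycling share was 2.04%, 7.79% and 7.14% in the p16-DTR libraries and 10.0%, 0% and 9.46% in controls. The 0 of 28 cells of control library 2 allows a detected share of up to 10.7% at this depth. Without thinning 5 of the same 28 cells (17.9%) were cycling. Cdkn1a was found in 27.6% of thinned cDC1 (56.2% without thinning) and by library in 24.5%, 29.9% and 22.6% against 32.0%, 53.6% and 20.3%, highest in control library 2. Cdkn2a was found in 2.04%, 3.90% and 2.38% against 0%, 0% and 1.35%. These were 1 of 49, 3 of 77 and 2 of 84 cells against 0 of 50, 0 of 28 and 1 of 74. The 0 of 50 and 0 of 28 cells allow detected shares of up to 6.00% and 10.7% at this depth, which does not limit the share that express Cdkn2a. After thinning Cdkn2a was the 1 share of 10 without overlap (exact permutation p = 0.1). This differed without thinning, where Cdkn2a was found in 6.12%, 15.6% and 11.8% against 8.0%, 3.57% and 2.70% and overlapped (exact permutation p = 0.2). Cdkn1a (55.1%, 54.5% and 49.4% against 62.0%, 64.3% and 59.5%) and Cxcl9 (6.12%, 6.49% and 5.88% against 10.0%, 10.7% and 13.5%) did not overlap without thinning, both lower in the p16-DTR libraries (exact permutation p = 0.1 each). After thinning all 10 adjusted p-values were at least 0.875, in a design that cannot go below 0.1 before adjustment.

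**Figure D5:**
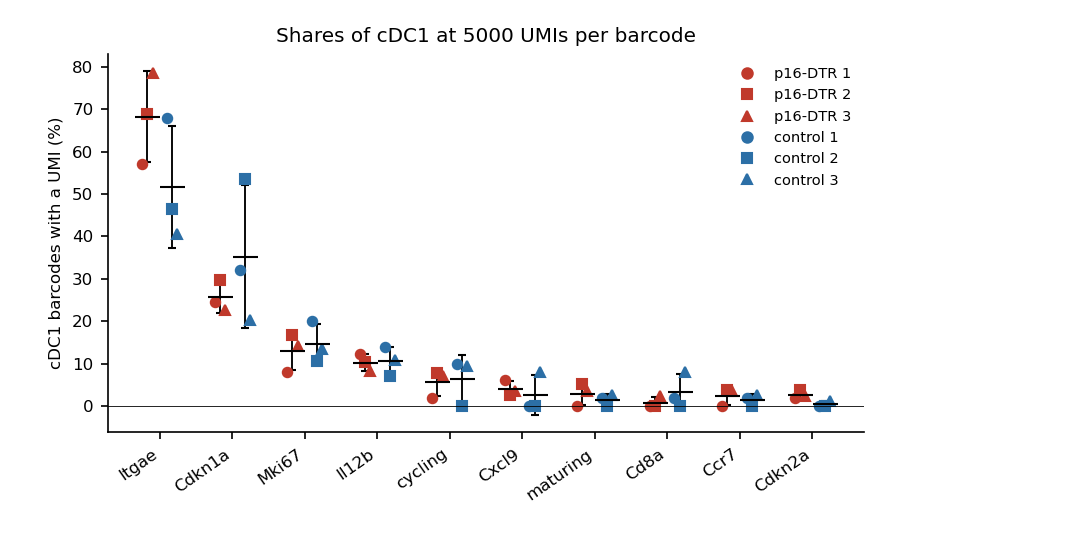
Share of cDC1 (%) with a UMI of each gene, or with UMIs of 2 genes of the cycling or maturing set, after thinning each cell to 5000 UMIs. Points are libraries and bars give the mean and SD of 3. Itgae ranges from 40.5% to 78.6% and Cdkn1a from 20.3% to 53.6%. Cdkn2a is the 1 item whose groups do not overlap at this depth, on 0 to 3 cells with a UMI per library.

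A small set of 15 cDC1 held UMIs of at least 2 of Ccr7, Fscn1, Cacnb3 and Ccl22 (maturing), 9 in the p16-DTR libraries and 6 in controls. Their values are pooled in unscaled CPM and given without a test. Ccl5, a chemokine, reached 1557 CPM in these cells against 13.2 in the other 348, Il12b 597 against 100.1, the checkpoint ligand Cd274 254 against 27.6 and Relb, a transcription factor of dendritic cell maturation, 441 against 68.2. Of the costimulatory genes, Cd80 was 289 against 186, Cd40 68.1 against 15.3 and Cd86 655 against 637. In the same cells Tlr3 was 94.2 against 251, Naaa, a lysosomal amidase, 489 against 990.1 and Irf8 731 against 1167, while Flt3 was 290 against 241. The gate genes were 157 against 297 for Xcr1 and 186 against 406 for Clec9a. The cycling cells, 95 without thinning, had median depths of 44336 to 53766 UMIs per library against 37254 to 39511 in the other cDC1. Their Irf8 stood at 1071 CPM against 1179 and Clec9a at 327 against 426, and Cdkn2a at 5.03 against 2.19.

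The test of whether the group difference itself differed between cDC1 and the Cd209a gate, an edgeR interaction term with the library as a block, called 1 of 10714 genes (0.00933%), and 6.87% had an unadjusted p under 0.05. Pcdh7, a protocadherin gene, had 297, 374 and 221 CPM in the p16-DTR libraries and 183, 274 and 199.8 CPM in the control libraries in cDC1, overlapping, at a log2 fold change of 0.45 ± 0.22 SE (edgeR adjusted p = 0.723). In the Cd209a gate it had, in unscaled values, 0, 1.40 and 0.991 CPM against 14.4, 36.3 and 27.5 CPM. The 2 log2 fold changes differed by 5.20 ± 0.48 SE (edgeR adjusted p = 0.031). The call was absent without p16-DTR library 1, p16-DTR library 2, p16-DTR library 3, control library 2 or control library 3, and with predicted doublets left out (edgeR adjusted p = 0.558). The difference was 4.72 to 5.61 on the log2 scale when 1 library was left out and 3.72 without predicted doublets. The differences described above for Adgre1, Fcgr1 and Lyz2 did not pass this test, with adjusted p of 0.236, 0.26 and 0.324. Without the filter on low counts 71 genes were called, these 3 among them, with edgeR adjusted p of 0.000399, 0.00281 and 2.99e-05. Without p16-DTR library 2 the 1 gene called was Retnla. The Cd209a gate alone also had 0 of 9741 genes called, with 8.44% at an unadjusted p under 0.05.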

How the data were processed

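The values are whole-number UMI counts of each gene in each barcode, not normalized, as the authors deposited them, made with Cell Ranger 8.0.1 against mm10, per the submitters' processing notes; filters, annotation release and treatment of intronic reads are not given in the sources used here. Of 31054 features, 30934 matched GENCODE M21, used for positions. The numbers 20000 and 9000 of mixed cells come from the labels' protocols.

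cDC1 barcodes were gated as described and not clustered. Their counts were summed per library (1152874 to 3770836 UMIs) and tested with edgeR 4.0.16 in R 4.3.3 (filterByExpr, TMM, quasi-likelihood test, Benjamini-Hochberg at 0.05) on the group alone. Cdkn2a did not pass the filter and was read from a fit without it. Shares were compared by exact two-sided permutation over libraries, in Python 3.11.15 with scipy 1.17.1. Doublets were predicted from 2 simulated per cell in 30 principal components of 2000 genes, at 0.4% per 1000 barcodes. The tests were first checked on simulated data. Replicate libraries differed beyond counting error (chi-square per degree of freedom 4.05 to 7.51).

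The members and the gene lists were chosen with earlier results of these data known. Genes named are the gate genes, Flt3, H2-Ab1, Cdkn2a, Cdkn1a, Hbegf and tdTomato, the 10 of smallest unadjusted p in each direction with a mean of at least 10 CPM, the most abundant 3 of each list, called genes, and the 10 highest and 10 lowest ratios to the Cd209a gate; other genes were chosen after their values were seen. Alternatives were RLE or library size scaling, DESeq2 1.42.0, no filter, leaving out each library in turn, a block for the replicate number, other gates and denominators, no thinning, and leaving out doublets, maturing or cycling cells or cells with markers of other classes.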

Additional observations from a re-analysis of the deposited data

Results flagged for a closer look

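The protocadherin gene Pcdh7 was the 1 gene whose group difference differed between cDC1 and the Cd209a gate by the test of that difference, at 5.20 ± 0.48 SE on the log2 scale (edgeR interaction, adjusted p = 0.031). Its level in cDC1 lay between 183 and 374 CPM after TMM scaling. In unscaled values of the Cd209a gate it was 0 to 1.40 CPM in the p16-DTR libraries and 14.4 to 36.3 CPM in controls, where edgeR alone gave an adjusted p of 0.189. The call was lost in 5 of 6 fits that left out 1 library (adjusted p 0.0565 to 0.306, against 0.024 without control library 1), with predicted doublets left out (3.72 on the log2 scale, adjusted p = 0.558) and with the replicate number as a block within each gate (adjusted p = 0.0721). In those 5 fits the difference was 4.72 to 5.61 on the log2 scale, and with the block it was 5.24. Retnla was called in its place without p16-DTR library 2, and 71 genes were called without the filter on low counts.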

How the results depend on the processing

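The number of 28 to 85 cells per library limits the precision. The count of 0 called genes between the groups held in edgeR under each scaling, filter, gate and left-out library run, with 538 to 1088 genes at an unadjusted p under 0.05 and smallest adjusted p from 0.056 (no filter on low counts) to 0.846, apart from the fit on 31 cells; DESeq2 called 22. The interaction with the Cd209a gate called 71 genes without the filter, 0 with predicted doublets left out, and 0 to 1 when 1 library was left out. With the replicate number as a block, edgeR called 0 genes (smallest adjusted p 0.735) and Cdkn2a had a log2 fold change of 1.70 (adjusted p = 0.947). Deviations of same-numbered libraries correlated at -0.0857, -0.0750 and 0.0765, and those of differently numbered ones at -0.168 to 0.213. With 3 libraries per group this check cannot decide whether the numbers pair the libraries. With the replicate number as a block within each gate, chosen after the data were seen, the interaction called 0 genes (smallest adjusted p 0.0721).

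The share of cDC1 differed by -0.0230 to 0.311 percentage points when 1 library was left out, and its sign was the same under the other denominators and gates (0.0467 to 0.272). Shares within cDC1 changed sign in 10 of 70 settings, each with a main difference inside the replicate spread. Without thinning the differences were 1.41 for Mki67, -5.24 for Cxcl9 and -0.142 percentage points for maturing cells. Leaving out 1 library gave -3.65 to 0.997 for Mki67, -2.08 to 1.35 for Il12b and -4.07 to 0.981 for cycling cells.

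The 53 named genes compared under alternatives were mostly picked for a small unadjusted p, so their direction was largely set by that choice. In edgeR 0 genes were called in each setting, so only DESeq2 could move a gene across the threshold. Of 923 values of these 53 genes, 898 kept their direction and side of the threshold, 12 passed it with DESeq2 and 13 changed sign, none of them called. These were Flt3 with library size scaling (-0.015), when 1 library was left out (-0.028 to 0.045), without doublets (-0.041) and at 2 UMIs of the gate genes (-0.043), Cdkn1a without maturing cells (-0.020) and without cells rich in other-class markers (-0.28), and Ifi47 without cycling cells (-0.032). In the 31 cells without 2 markers of another lineage they were Eml6 (-0.25), Bcl2a1b (-0.91), Slc38a1 (0.35), B2m (-0.18), H2-K1 (-0.37) and Ccr2 (0.30). The cause was not tested; that fit had few cells.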

Other observations

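The following 5 single genes were each picked after their values were seen because they were lower in cDC1 of the p16-DTR libraries. Their shared direction is therefore that choice itself. All 5 act in or regulate cholesterol synthesis, whose other genes are not given here, and the pathway as a group was not tested. Of the 5 genes, 0 passed the adjusted edgeR threshold. Cyp51, which demethylates lanosterol, had 36.2, 47.4 and 30.6 CPM in the p16-DTR libraries and 92.4, 70.4 and 65.7 CPM in the control libraries, without overlap (-1.001 ± 0.21 SE; edgeR adjusted p = 0.449; DESeq2 adjusted p = 0.0496). Sqle stood at -1.002, Hmgcs1 at -0.69, Idi1 at -0.68 and Insig1 at -0.44 on the log2 scale.

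A further 3 genes of the monocyte and macrophage lineages, also chosen after their values were seen, had positive log2 fold changes in cDC1 that did not pass. Their shared direction may follow from that choice. The fixed marker lists of classical monocytes, nonclassical monocytes and interstitial macrophages each had 4 positive genes and 1 negative. Zeb2, a transcription factor of type 2 dendritic cells and monocytes, had 296, 203 and 259 CPM against 183, 92.1 and 148 CPM (0.82) and the C-type lectin gene Clec4a3 76.8, 45.2 and 67.6 CPM against 33.5, 24.3 and 33.6 CPM (1.02), both without overlap. Fcgr3 had 52.8, 40.9 and 63.8 CPM against 13.6, 9.56 and 42.9 CPM (1.15) and overlapped. Retnla, which encodes a secreted protein of alternatively activated macrophages and was not tested in cDC1, had 0, 0.308 and 294 CPM against 0.453, 0 and 0 CPM, so that nearly all of it came from p16-DTR library 3.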
